A study of Mus musculus with 4 samples.

Results

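The 10 genes followed here are ones that sensory neurons are known to switch on after their axons are cut, and they were read in the dorsal root ganglion (DRG) cells of this series: Atf3, Sprr1a, Sox11, Gap43, Gadd45a, Ecel1, Stmn4, Flrt3, Gpr151 and Tubb6. They are 10 of the 32286 features in the DRG count tables, were picked by name, and all 10 were found there. In 6 neurons, 3 from each library, Gap43 and Stmn4 lay above all other deeply sequenced neurons and Sox11 above most of them, while the typical neuron held Atf3 and often Gap43 with few or no counts of Sprr1a, Ecel1 or Gpr151. Between the vehicle and the 1NMPP1 library no member that could be measured in neurons at 5000 or 50000 UMIs each differed by 2-fold. Of all measured genes 10.6% and 8.69% did, and in a second random thinning to 5000 UMIs 1 member did. In the 1NMPP1 library Atf3 was higher by 0.54 on the log2 scale in satellite glia-like cells and by 0.57 in myelinating Schwann-like cells, where genes linked to tissue dissociation were higher too.

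The mice carry an engineered allele of a receptor kinase of sensory neurons, which makes that kinase sensitive to the small molecule 1NMPP1. Both groups share this genotype. The vehicle group received DMSO in vehicle. The other group received 1NMPP1 by intraperitoneal injection at 17 µg per g body weight, from a 5 mM solution, 48 h and 2 h before surgery, and then drank water with 40 µM 1NMPP1. Lumbar DRG of the injected side were taken 7 days after injury, which in this series was an injury of the growth plate at the distal femur, and were dissociated with papain, collagenase and dispase. No nerve was cut, as far as the labels say, and no uninjured DRG library was analysed here. There is 1 library per group, so the 2 libraries cannot be tested as conditions. How many animals were pooled into each library is not stated in the labels. Intervals below are 95% and cover counting error only.

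The vehicle library held 3675 barcodes with 57303894 unique molecular identifiers (UMIs, one per captured transcript) and the 1NMPP1 library 2612 barcodes with 32791945. After filters 2843 and 2151 cells were kept, with medians of 10462 and 7026 UMIs, and the 2 libraries shared 4 barcodes. Of these, 325 and 97 cells formed the sensory neuron-like class. All 15 of its markers were detected, at a summed 21581 and 19137 CPM (summed UMIs scaled to the same total in every class) against 269 and 156 CPM of the same markers in neutrophil-like cells. The neurons differed in depth, with 96 and 57 of at least 5000 UMIs and 81 and 53 of at least 50000, so neurons were compared after each was thinned to the same number of UMIs. Satellite glia-like cells numbered 596 and 185, myelinating Schwann-like cells 291 and 256, and non-myelinating Schwann-like cells 69 and 12. These names rest on marker lists, and "like" is left off below. Cells were called male by UMIs of Y-linked genes without Xist and female by Xist without those. Each library held both, in different proportions: the satellite glia were 342 male-called and 172 female-called cells in the vehicle library and 48 and 120 in the 1NMPP1 library.

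After an axon is cut, the neuron's cell body turns on a programme of transcription factors, cytoskeletal proteins, secreted signals and receptors that accompanies axon regrowth. ATF3 is its most widely used marker in DRG neurons, where it is nearly absent before injury, and it acts with other basic leucine zipper factors such as JUN. Atf3 is also an immediate early stress gene that many cell types induce, and tissue dissociation is a known trigger.

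The upstream sequences of Atf3 and Sprr1a are shown because they were the only 2 of the 6 members with a promoter in the reference table to hold any of the 5 motifs searched. They are from RefSeq (GRCm38.p6), 250 bases upstream of a start site, 5′ to 3′ on the gene's strand, with motif matches in capitals. The Atf3 sequence is chr1:191183334-191183583 on the minus strand, and the capitals mark TGACG, the core of the cAMP response element, read on the opposite strand. This window lies inside the annotated Atf3 gene (191170296 to 191218039), and the sequence upstream of the gene's outer end was not searched. The Sprr1a sequence is chr3:92485882-92486131 on the minus strand, and the capitals mark TGANTCA, the AP-1 element that JUN and ATF dimers can bind.
Atf3: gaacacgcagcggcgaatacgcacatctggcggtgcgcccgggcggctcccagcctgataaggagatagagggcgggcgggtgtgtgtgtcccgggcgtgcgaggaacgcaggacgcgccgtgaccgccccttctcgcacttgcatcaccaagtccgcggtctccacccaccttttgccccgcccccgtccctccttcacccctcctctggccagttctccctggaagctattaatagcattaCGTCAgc
Sprr1a: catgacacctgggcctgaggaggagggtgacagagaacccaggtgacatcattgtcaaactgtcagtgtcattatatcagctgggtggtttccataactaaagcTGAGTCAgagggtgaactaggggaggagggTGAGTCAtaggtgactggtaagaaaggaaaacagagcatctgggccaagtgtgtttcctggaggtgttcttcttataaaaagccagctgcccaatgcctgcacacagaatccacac
Sprr1a held 2 copies of TGANTCA, from base -146 to -140 and from -116 to -110 relative to the start, and 6.75% of the 32851 promoters searched held at least 1. The Atf3 match lay from -7 to -3, and TGACG was in 17.8% of promoters. The Atf3 window was rich in CpG, with 24 CpG and 65.2% GC against medians of 6 and 52.4% over all promoters, while Sprr1a had 0 CpG and 49.6% GC. The other 3 motifs, TGACGTCA (in 1.55% of promoters), CACGTG (6.02%) and the serum response element (1.47%), had no match in these 2 windows, and the Sox11, Gadd45a, Ecel1 and Flrt3 windows held none of the 5. Both strands were searched, and TGACG is part of TGACGTCA. A match describes letters only.

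Across the DRG, 7 of the 10 genes were highest in neurons by mean CPM over the 2 libraries, and Atf3, Gadd45a and Tubb6 were not. The order covers the 11 classes with at least 30 cells in both libraries. For Flrt3, Sprr1a and Ecel1 the span of both libraries' intervals overlapped that of the next class. Gap43, a growth cone protein, was at 715 CPM (vehicle) and 671 CPM (1NMPP1) in neurons, and the next class, fibroblasts, was at 46.2 and 68.6 CPM. Stmn4, a stathmin that binds tubulin, was at 65.3 CPM in both neuron sums and at most 2.57 CPM in any other of the 11 classes.

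Sox11, an HMG-box transcription factor of developing and regenerating neurons, was at 87.0 and 72.6 CPM in neurons. Endothelial cells came next at 49.9 and 33.8 CPM, apart from the neurons and from all lower classes beyond counting error. Sprr1a, a small proline-rich protein that injured neurons make, summed to only 76 and 20 UMIs in neurons, and Ecel1, a membrane metalloprotease-like protein, to 43 and 10. Gpr151, an orphan receptor, summed to 75 and 55 UMIs in neurons, with at most 1 UMI per library in any other of the 11 classes.

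Atf3 had another order, with neurons eighth of 11. Macrophages led at 1732 and 2430 CPM, and monocytes, dendritic cells, endothelial cells and fibroblasts all lay between 740 and 1680 CPM. Satellite glia were at 518 and 752 CPM and myelinating Schwann cells at 347 and 514 CPM. Neurons were at 208 and 204 CPM, below every glial class and above neutrophils at 73.6 and 78.3 CPM, and neither gap was within counting error. The non-myelinating Schwann cells, outside the order because the 1NMPP1 library held 12 of them, had 2687 and 3220 CPM.

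Gadd45a, a growth arrest and DNA damage response gene, was highest in neutrophils at 332 and 414 CPM, and neurons held 36.8 and 47.5 CPM. It shares exon bases with E230016M11Rik on the opposite strand, so part of its counts could belong to that transcript. Tubb6, a beta-tubulin, was highest in macrophages at 118 and 160 CPM and in endothelial cells at 134 and 101 CPM. In neurons Tubb6 was at 6.66 and 5.10 CPM. Flrt3, a leucine-rich repeat adhesion protein, was at 45.7 and 50.3 CPM in neurons, 56.1 and 26.8 CPM in dendritic cells and 31.1 and 22.5 CPM in satellite glia.

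**Figure D1:**
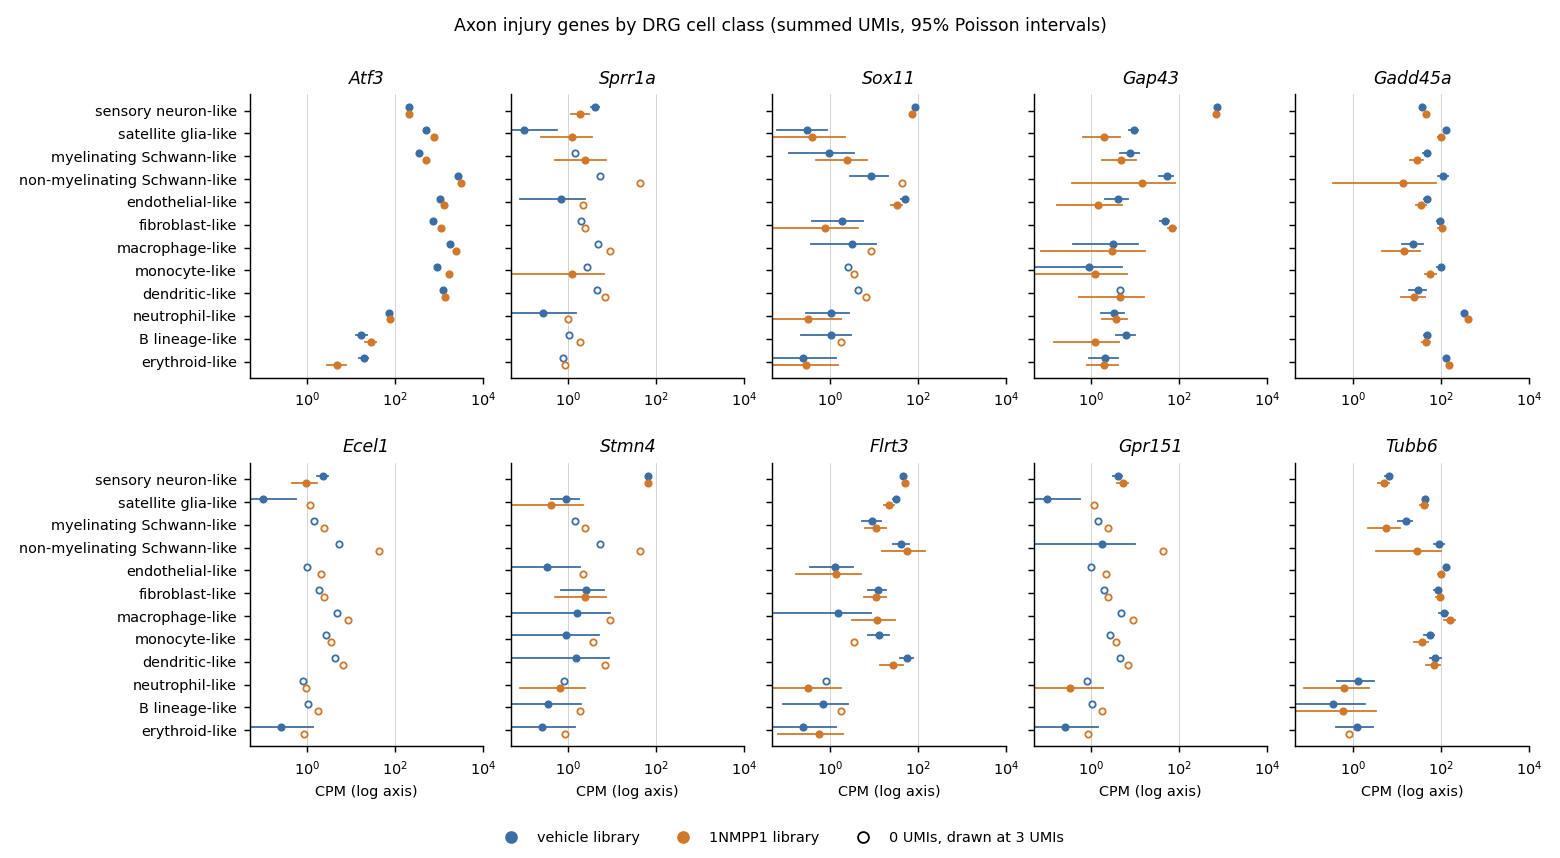
Level of each gene (CPM of the summed UMIs, log axis) in 12 cell classes of the vehicle library (blue) and the 1NMPP1 library (orange); bars are 95% Poisson intervals, which the axis cuts off at its lower end, and open points are classes with 0 UMIs, drawn at the level of 3 UMIs. Gap43 and Stmn4 stand out in neurons, whereas Atf3 is lower in neurons than in glia, macrophages and endothelial cells in both libraries.

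Thinned to 5000 UMIs, 6 of the 10 genes reached 20 UMIs over both libraries, the minimum used for ratios and medians. None of the 6 differed by a log2 ratio of 1, against 10.6% of the 6312 genes measured (6.18% higher and 4.44% lower in the 1NMPP1 library), and 2 of the 6 were above 0. A second random thinning to 5000 UMIs, thinning to 1000 UMIs, a minimum of 500 genes and leaving out the largest cluster each put 1 member past it. The share of all genes past it was not computed in these settings. The median log2 ratio (1NMPP1 over vehicle) of the 6 members was -0.12, and that of all measured genes was 0.05. Atf3 was at 118 UMIs in the vehicle neurons and 63 in the 1NMPP1 neurons, a log2 ratio of -0.15 (-0.62 to 0.30). It was at 0.40 (-0.27 to 1.00) in male-called neurons alone and at -0.92 (-1.88 to 0.08) in female-called ones, the latter from 40 UMIs. Gap43 was at 0.27 (-0.11 to 0.63) in the male-called and -0.75 (-1.34 to -0.13) in the female-called neurons, and the difference between the sexes was not tested. Atf3 had a UMI in 58.3% (47.8 to 68.3) and 52.6% (39.0 to 66.0) of neurons. At this depth Sprr1a, Ecel1 and Gpr151 each had at most 2 UMIs in a library, and Tubb6 had 3 and 4.

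The deeper neurons gave more counts per gene. At 50000 UMIs, a depth chosen after the depths were seen, 8 of the 10 genes were measured, none passed a log2 ratio of 1 against 8.69% of 12144 genes (4.72% higher and 3.97% lower), and the median was 0.17 against 0.07 over all genes. Sprr1a (11 and 7 UMIs) and Ecel1 (9 and 1) stayed below the minimum. Intervals of 3 genes lay above 0 and of 1 below it, and the share over all measured genes was not computed. In the wider lists read below, intervals of 10 of 18 growth cone and cytoskeleton genes lay above 0 and of 6 below. Of 12 transcription factors, 4 lay above and 2 below.

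Atf3 was detected in nearly all of these deep neurons, 78 of 81 and 50 of 53. The vehicle neurons had a median of 10 and a highest value of 53 UMIs, and the 1NMPP1 neurons a median of 7 and a highest of 61. The groups overlapped throughout, and the log2 ratio was -0.08 (-0.22 to 0.07). Sox11 had a median of 3 (highest 38) in vehicle and 2 (highest 51) in 1NMPP1 neurons, with a log2 ratio of 0.09 (-0.14 to 0.33).

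Gap43 split the neurons. Its quartiles were 1, 41 and 57 UMIs in the vehicle neurons and 0, 8 and 53 in the 1NMPP1 neurons, with highest values of 234 and 260. It had a UMI in 63 of 81 and 34 of 53 neurons. The summed log2 ratio was -0.10 (-0.18 to -0.02), so the medians lay much further apart than the sums. Stmn4 had quartiles of 0, 1 and 6 UMIs and of 0, 0 and 7 UMIs, with highest values of 38 and 49, and a log2 ratio of 0.25 (0.01 to 0.49).

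Gadd45a was at 139 and 145 UMIs, a log2 ratio of 0.67 (0.33 to 1.02), and had medians of 1 and 2 UMIs per neuron. Flrt3 was at 229 and 195 UMIs, a log2 ratio of 0.38 (0.10 to 0.66), with a median of 1 in both libraries and a highest value of 28 in both. The ranges of the 2 libraries overlapped for both genes. Gpr151 was at 15 and 16 UMIs and Tubb6 at 20 and 13, with log2 ratios of 0.70 (-0.41 to 1.82) and 0.01 (-1.14 to 1.07).

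**Figure D2:**
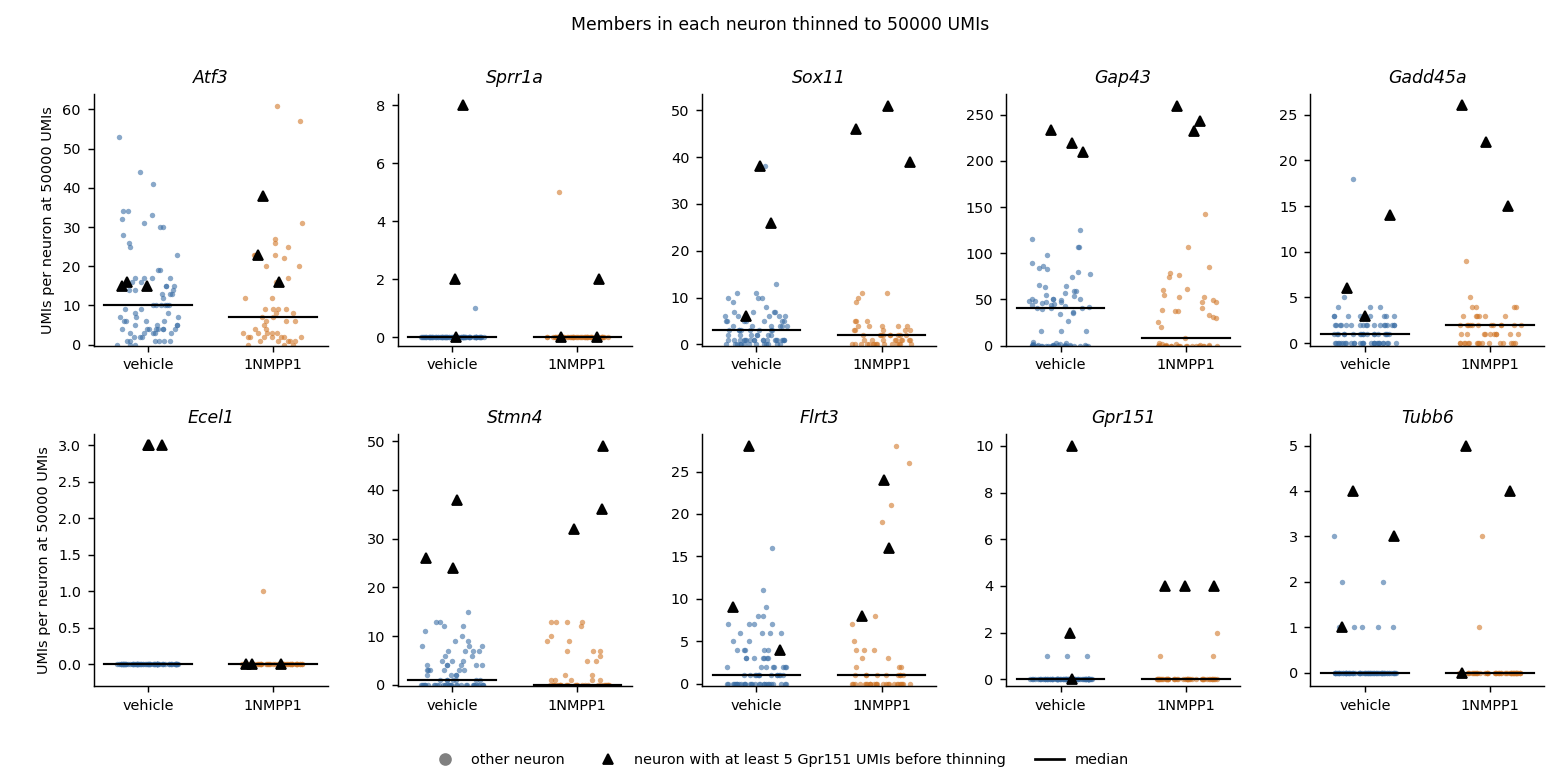
UMIs of each gene in each neuron thinned to 50000 UMIs, for 81 vehicle neurons and 53 1NMPP1 neurons; lines are medians and black triangles the 6 neurons with at least 5 Gpr151 UMIs before thinning. The triangles lie above all other neurons for Gap43 and Stmn4 in both libraries, and inside the range of the others for Atf3.

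For Gap43 and Stmn4 the highest values in both libraries belonged to the same 6 neurons. They were picked after the values were seen, as neurons with at least 5 Gpr151 UMIs before thinning, so their separation is a description. The 3 vehicle neurons held 39, 6 and 5 Gpr151 UMIs, and the next vehicle neuron held 3. The 3 1NMPP1 neurons held 17, 14 and 7, and the next held 2. They made up 3 of 81 (3.70%, exact binomial interval 0.77 to 10.4) and 3 of 53 (5.66%, 1.18 to 15.7) of the deep neurons, and these intervals overlap. Their depths were 271377, 231375 and 159786 UMIs and 123174, 157128 and 139343 UMIs.

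In unthinned CPM, Gap43 was at 4997, 4625 and 4099 in the 3 vehicle neurons and at 5123, 4417 and 4557 in the 3 1NMPP1 neurons. No other deep neuron was above 2418 CPM (vehicle) or 2461 CPM (1NMPP1). Stmn4 was at 472, 774 and 494 CPM and at 909, 617 and 675 CPM, with no other neuron above 269 and 251 CPM. Sox11 was at 770, 493 and 207 CPM in the vehicle neurons, where 3 other neurons reached the lowest of these values. In the 1NMPP1 neurons Sox11 was at 1096, 878 and 754 CPM, above every other neuron of that library (at most 241 CPM).

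Other members were high in only some of the 6. Gadd45a was at 57, 29 and 9 UMIs and at 64, 61 and 49 UMIs, above the other neurons by CPM in the 1NMPP1 library only. Ecel1 was at 13, 20 and 7 UMIs in the vehicle neurons, above all others there, and at 0 in all 3 1NMPP1 neurons. Sprr1a was at 63, 5 and 0 UMIs and at 3, 0 and 0 UMIs. The Sprr1a and Ecel1 sums in vehicle neurons came mainly from these cells, 89.5% and 93.02%, and in the 1NMPP1 library 15.0% and 0% did.

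In the 1NMPP1 library most Sprr1a and Ecel1 came from 1 other neuron of 250488 UMIs, with 17 Sprr1a, 10 Ecel1 and 8 Nts UMIs and no Gpr151. It was named after its values were seen. Flrt3 was at 46, 115 and 12 UMIs and at 53, 68 and 16 UMIs in the 6 neurons, and Tubb6 at 12, 18 and 10 and at 11, 1 and 7. Both overlapped other neurons.

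Atf3 did not set the 6 neurons apart. They were at 321, 333 and 257 CPM and at 438, 738 and 388 CPM, while other neurons reached 1068 and 1251 CPM. In each library other neurons, 29 and 11 of them, were at or above the lowest of the 3. Jun, a partner of ATF3, likewise lay between 341 and 955 CPM in the 6, inside the range of the others.

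Outside the 10, 3 genes chosen after their values were seen were also high in these cells. Csf1, the cytokine that injured sensory neurons release to microglia, was at 43, 74 and 11 UMIs and at 59, 51 and 31 UMIs, or 68.8 to 320 CPM and 222 to 479 CPM, and 11 other vehicle neurons and 1 other 1NMPP1 neuron reached the lowest of these levels. Gal, the neuropeptide galanin, was at 9120, 1266 and 3692 CPM and at 15929, 2775 and 5605 CPM, while other neurons reached 2206 and 3461 CPM. Cckbr, the cholecystokinin B receptor, had 63 of its 66 UMIs in vehicle neurons (95.5%) and all 38 of its UMIs in 1NMPP1 neurons in these 6 cells. Npy, another neuropeptide known from axotomised DRG neurons, had 0 UMIs in every deep neuron.

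Of the 6 neurons, 5 fell in the largest neuron cluster, counted over neurons of at least 5000 UMIs, which is led by Tac1, Calca and Gal. The Tac1 of these 5 was between 7.37 and 225 CPM against medians of 4496 and 4795 CPM in the cluster's other neurons. Scn10a, a nociceptor sodium channel, was between 14.7 and 165 CPM against cluster medians of 418 and 456 CPM. Calca, the CGRP gene, was between 480 and 2514 CPM in the 5 against cluster medians of 10647 and 10943 CPM. It was at 2873 CPM in the 1 neuron outside the cluster. These clusters were formed on the same counts, so the values describe the cells. Of glial transcripts, 1 vehicle neuron held 525 Apoe and 145 Fabp7 UMIs, and the other 5 held at most 21 Apoe UMIs; the part of glial RNA in these cells was not tested.

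**Figure D3:**
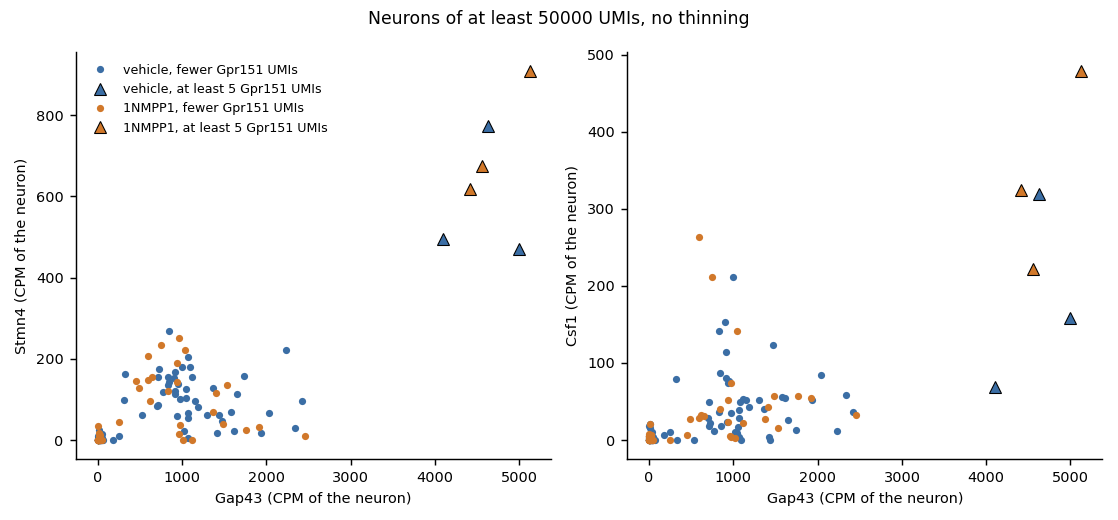
Each deep neuron by Gap43 and Stmn4 (left) and by Gap43 and Csf1 (right), in CPM without thinning; triangles are the 6 neurons with at least 5 Gpr151 UMIs. All 6 lie at 4099 CPM of Gap43 or more, and the other neurons at 2461 CPM or less.

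Several of the ratios between the libraries changed without the 6 neurons, which were picked after their values were seen. They held 21.8% of Sox11 UMIs in vehicle neurons and 49.2% in 1NMPP1 neurons, 31.5% and 43.8% of Stmn4, 23.0% and 27.6% of Gap43, and 13.7% and 34.6% of Gadd45a. Without them, at 50000 UMIs, the log2 ratio of Sox11 was -0.67 (-0.996 to -0.36) in place of 0.09, that of Gap43 -0.40 (-0.49 to -0.30) in place of -0.10, that of Gadd45a 0.14 in place of 0.67, and that of Stmn4 -0.15 in place of 0.25. The median was then -0.16, over the 6 members still at 20 UMIs or more. At 5000 UMIs and without the whole largest cluster, which holds 5 of the 6, Sox11 was at -1.39 (-3.24 to -0.08) and Gap43 at -0.56 (-0.98 to -0.17).

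Members were also counted per neuron. At 50000 UMIs the median neuron had 5 (vehicle) and 4 (1NMPP1) of the 10 genes, and at least 8 were detected in 3 of 81 and 3 of 53 neurons. In the 1NMPP1 library 1 of these 3 is not among the 6 neurons above, and 1 of the 6 held 7. At 5000 UMIs at least 3 of the 10 were seen in 43.8% (33.6 to 54.3) and 33.3% (21.4 to 47.1) of neurons. These intervals overlap.

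**Figure D4:**
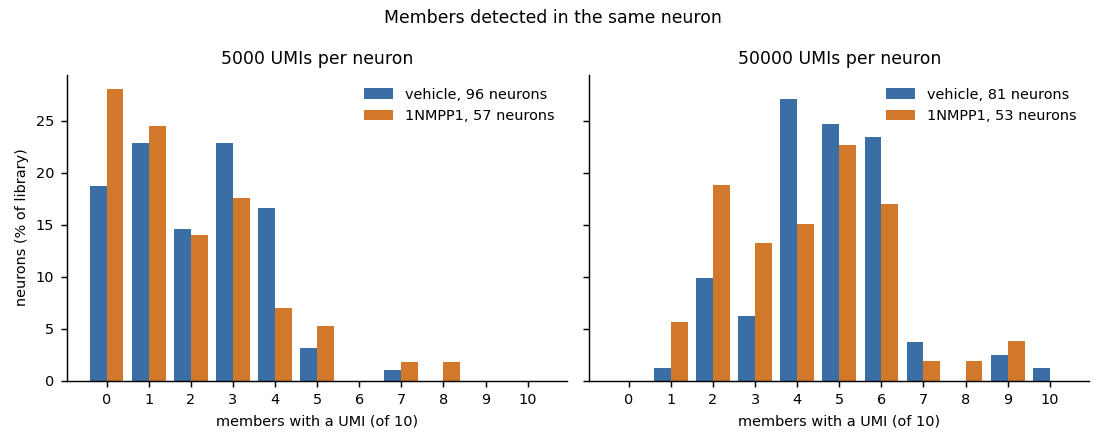
Share of neurons (%) by how many of the 10 genes had a UMI, at 5000 UMIs (left) and 50000 UMIs (right), for the vehicle (blue) and 1NMPP1 (orange) libraries. At 50000 UMIs most neurons hold 2 to 6 of the genes, and 3 in each library hold 8 or more.

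Gap43 differed widely between neuron clusters in both libraries. At 50000 UMIs the cluster led by Tac1, Calca and Gal (28 and 17 neurons) had a mean of 58.6 and 75.4 Gap43 UMIs per neuron (medians 45 and 41, the means holding 5 of the 6 neurons above), and a second Calca cluster (12 and 7 neurons) 87.2 and 89.4 (medians 87.5 and 79). Gap43 is itself among the 10 leading genes of both clusters. All clusters were formed on the same counts, so these levels describe them. A cluster that scored highest for C-low-threshold mechanoreceptor markers (14 and 17 neurons) had 0.57 and 0.18, and one that scored for A-fibre markers (9 and 5) had 2.11 and 0.20. Atf3 was at a mean of 19.2 and 24.4 UMIs in the first cluster, 14.8 and 13.3 in the second, and 2.00 and 3.82 in the mechanoreceptor-scored one. The libraries held different mixes of these types: the mechanoreceptor-scored cluster was 17.3% of the vehicle and 32.1% of the 1NMPP1 deep neurons, and its part in the lower Gap43 median of the 1NMPP1 library was not tested.

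Of 4040 genes seen in at least 20% of neurons thinned to 5000 UMIs, those closest to the mean log2(UMI + 1) of the 10 members were Gal (Pearson r = 0.74), Celf4 (0.65), Ptprn (0.63), Klf6 (0.63), S100a11 (0.62), Adcyap1 (0.62), Phlda1 (0.60) and Dbpht2 (0.60), over 153 neurons. At 50000 UMIs Gal, Celf4, S100a11, Phlda1 and Dbpht2 were again among the closest 8, and Atp2b4 led (0.80, over 134 neurons). The points share 2 libraries and the same mix of neuron types. Among pairs of members, Gap43 with Stmn4 gave r = 0.74 and 0.73 over 81 and 53 neurons and Atf3 with Gap43 0.65 and 0.64. Sprr1a with Ecel1 gave 0.74 and 0.85, but both genes had UMIs in 2 and 1 neurons only.

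Wider injury lists were read in the same neurons. Of 12 regeneration-linked transcription factors all 12 were measured at 50000 UMIs, 8 were above 0, none passed a log2 ratio of 1, and the median was 0.07. Jun was lower in the 1NMPP1 neurons (-0.39, -0.51 to -0.28) and Bhlhe41 higher (0.57, 0.37 to 0.78). Of 18 growth cone and cytoskeleton genes, 11 were above 0 and none passed a log2 ratio of 1, with Basp1, a growth cone protein like GAP43, at -0.52 and Dpysl5, a collapsin response protein, at 0.59.

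Of 11 injury-linked neuropeptides and secreted factors 7 were measured, 1 was past a log2 ratio of 1 in each direction (4.72% of all measured genes were past it higher and 3.97% lower), and the median was -0.04. Cartpt, a neuropeptide precursor, was at 1015 and 253 UMIs (-1.39, -1.60 to -1.19), and Gal was at 2232 and 1949 UMIs (0.42, 0.33 to 0.50). Of 24 adhesion, receptor, channel and survival genes 21 were measured, 1 was higher and 2 lower by that measure, against the same shares. Of 18 identity genes known to decline after axotomy all 18 were measured, 10 were above 0 and 2 were past a log2 ratio of 1, both higher, with Calca at -0.80 and Rgs4, a G protein regulator, at 1.03. The lists overlap in part with the 10 genes.

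Below 5000 UMIs the neuron class held 229 vehicle and 40 1NMPP1 cells, with medians of 982 and 691 UMIs. Thinned to 500 UMIs, Atf3 had a UMI in 4.80% and 12.5% of them, against 12.0% and 9.54% of equally thinned neutrophils of at least that depth (median depths 3653 and 3077 UMIs). These neutrophils held more Atf3 than their class as a whole, at 479 and 280 CPM, so the background of Atf3 in the shallow neurons was not tested. Gap43 was in 5.24% (2.74 to 8.97) and 15.0% (5.71 to 29.8) of the shallow neurons, against 1.33% and 0.41% of those neutrophils. Erythroid cells below 5000 UMIs (medians 639 and 1721.5), thinned alike, held Gap43 in 2.86% (0.59 to 8.12) and 2.63% (0.07 to 13.8). They held Atf3 in 11.4% and 2.63%. The Gap43 intervals of erythroid cells and shallow neurons overlap in each library, so its background was not settled. In the shallow neurons the intervals of the 2 libraries overlap for both Atf3 and Gap43.

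In satellite glia 5 of the 10 genes were measured, and 1 of them, Gap43, passed a log2 ratio of 1, against 12.7% of 12665 genes (7.59% higher and 5.16% lower). Atf3 was the only one higher in the 1NMPP1 library. It was at 5192 and 1901 UMIs, a log2 ratio of 0.54 (0.46 to 0.61), where the median of all measured genes was 0.15. It had a UMI in 51.5% (47.4 to 55.7) of vehicle and 55.8% (48.2 to 63.2) of 1NMPP1 cells thinned to 2000 UMIs, so the share of cells overlapped between the libraries. Gadd45a was lower (1350 and 250 UMIs, -0.44, -0.65 to -0.25), as was Flrt3 (312 and 57, -0.45, -0.90 to -0.05). Tubb6 was at 436 and 105 UMIs (-0.06, -0.39 to 0.24).

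Gap43 was at 92 and 5 UMIs in satellite glia, 9.17 and 1.98 CPM, a log2 ratio of -2.08 (-3.87 to -0.94). Both levels lay far below the neurons' 715 and 671 CPM. Neuron markers as a whole were also lower in the satellite glia of the 1NMPP1 library, at a summed 271 and 144 CPM, against 269 and 156 CPM in neutrophils, and their part in the Gap43 difference was not tested. In 1 cluster of 26 vehicle cells Gap43 was at 19 UMIs, 70.8 CPM, and the same cluster held 5 cells of the 1NMPP1 library with 0. That cluster was 4.36% of the vehicle class. Its marker score was 4.34 for satellite glia and 4 for non-myelinating Schwann cells, so its name is uncertain. With every cell at 2000 UMIs, 12 Gap43 UMIs were left in the class (-1.25, -7.202 to 1.01), and female-called cells alone held 19 (-0.96, -3.13 to 0.57).

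In satellite glia immediate early genes were higher beside Atf3. Of 14 dissociation stress and immediate early genes, 13 were above 0 in satellite glia, 7 passed a log2 ratio of 1, all higher, and their median was 0.96. Of all measured genes there, 7.59% passed it higher, and the median was 0.15. Nr4a1, an immediate early nuclear receptor, was at 1.73 (1.65 to 1.81) and Fosb, an AP-1 subunit, at 1.68 (1.62 to 1.73). Satellite glia with an Atf3 UMI at 2000 UMIs held a median of 18 (vehicle) and 34 (1NMPP1) UMIs of that list, and those without held 12 and 21. The part of the stress genes in the Atf3 difference was not tested.

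Alternatives moved the size of the Atf3 ratio in satellite glia. It was 0.92 in male-called and 0.38 in female-called cells, 0.40 after scaling by the median of gene ratios, and 0.10 (-0.03 to 0.24) in cells with at most 1 neuron marker UMI, which were shallower cells (medians 9123 and 10914 UMIs against 17084 and 16200 in the rest). In the cells with at most 1 neuron marker UMI the median of all measured genes was 0.13, above that of Atf3. With all cells thinned to 2000 UMIs and those then at 0 neuron markers kept, the Atf3 ratio was 0.49. The median over the members was not stable in sign: it was -0.44 without thinning, lower than the 0.15 of all genes, and 0.24 with every cell at 2000 UMIs.

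Myelinating Schwann cells gave a like picture for Atf3. It was at 722 and 638 UMIs, a log2 ratio of 0.57 (0.41 to 0.72), and had a UMI in 37.7% (31.2 to 44.6) and 42.3% (35.6 to 49.2) of cells at 2000 UMIs. The ratio was 0.27 (0.04 to 0.51) in female-called cells, 0.39 (0.11 to 0.67) with cells at 2000 UMIs, and 0.26 (-0.02 to 0.56) in cells with at most 1 neuron marker UMI. Of 5 members measured 1, Tubb6, passed a log2 ratio of 1, against 8.03% of 9777 genes (5.52% higher and 2.51% lower), at 33 and 7 UMIs (-1.41, -2.91 to -0.29). Gadd45a was at 100 and 35 UMIs (-0.76, -1.37 to -0.20), and Gap43 (16 and 6) and Flrt3 (19 and 14) had intervals that included 0. In the stress list 13 of 14 genes were above 0, 5 passed a log2 ratio of 1 and the median was 0.87. Neuron markers were at 480 and 261 CPM in these cells.

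Non-myelinating Schwann cells were few in the 1NMPP1 library, and 22.7% of their measured genes passed a log2 ratio of 1 (12.4% higher and 10.3% lower), as did 3 of the 5 members measured, all lower. Atf3 was at 1518 and 227 UMIs (0.26, 0.05 to 0.46), while the stress list median there was -0.60. Gap43 was at 29 UMIs in 69 vehicle cells and 1 UMI in the 12 cells of the other library (-1.29, -7.21 to 0.74), and Gadd45a at 63 and 1 UMIs, -2.40 (-8.30 to -0.44).

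Of 18 repair Schwann cell genes 7 were measured in myelinating Schwann cells, with 1 past a log2 ratio of 1 higher and 2 lower, where 5.52% and 2.51% of all measured genes were. Clcf1, a cytokine of the IL-6 family, was lower in the 1NMPP1 library in both glial classes, at 234 and 15 UMIs in satellite glia (-1.93) and 40 and 6 in myelinating Schwann cells (-1.90). Socs3, an inhibitor of cytokine signalling, was higher in both, at 1.58 and 0.90. Stat3, which SOCS3 restrains, was at 0.59 and 0.63. Socs3 and Stat3 are not repair list genes but glial activation genes. Of 14 of those measured in satellite glia, 2 were past a log2 ratio of 1 higher and 1 lower. Of 13 repair genes measured there, 0 were past it higher and 3 lower, where 7.59% and 5.16% of all measured genes were. Whether Clcf1, Socs3 and Stat3 share a pattern was not tested.

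**Figure D5:**
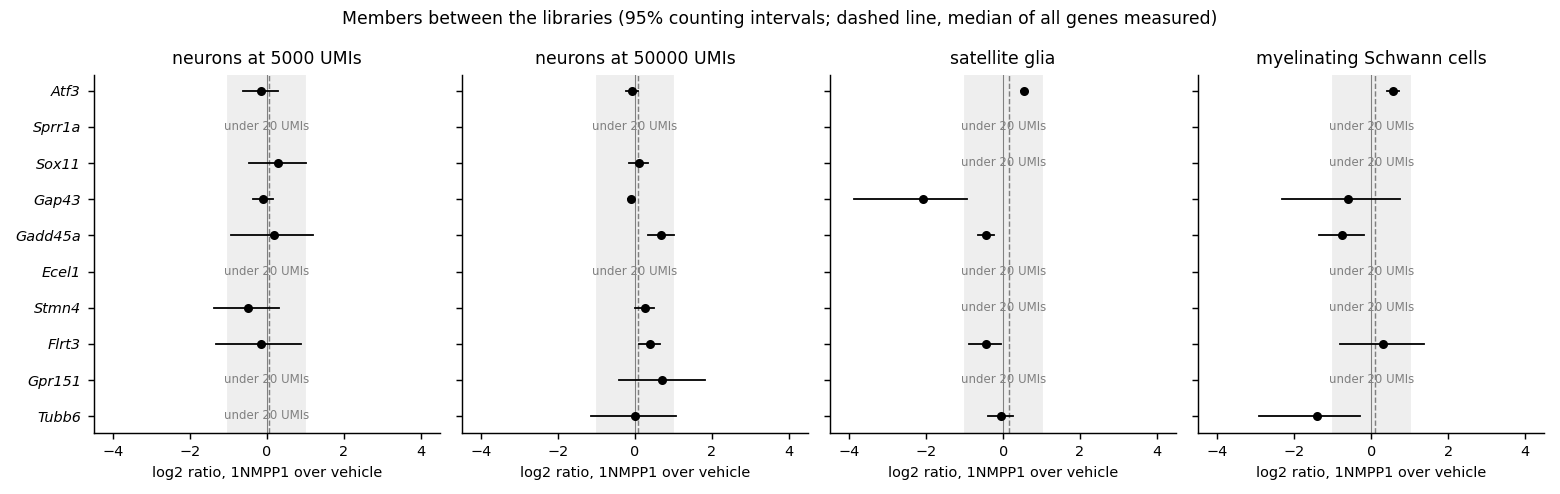
Log2 ratio of each gene, 1NMPP1 over vehicle library, in neurons at both depths, satellite glia and myelinating Schwann cells; bars are 95% counting intervals, the grey band is a log2 ratio within 1, the dashed line the median of all measured genes, and genes under 20 UMIs have no point. In neurons every point lies in the band, and in both glial classes Atf3 lies to the right of 0.

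Outside neurons and glia, Atf3 was also higher in the 1NMPP1 library in monocytes (0.92, 0.81 to 1.04), fibroblasts (0.56), macrophages (0.49) and endothelial cells (0.30), and in B lineage cells at few UMIs (0.72). It was lower in erythroid cells (78 and 17 UMIs, -2.01) and at 0.14 in dendritic cells and 0.09 in neutrophils, with intervals that included 0. In neurons without thinning it was at -0.03 (-0.10 to 0.05). The summed stress list was at 0.75 in macrophages, 0.69 in satellite glia and in myelinating Schwann cells, and 0.61 in B lineage cells. It was at 0.47 in monocytes and endothelial cells, 0.41 in dendritic cells, 0.30 in fibroblasts and 0.21 in neutrophils. In neurons it was at -0.06 and in erythroid cells at -0.22. Its part in the Atf3 ratios was not tested. In non-myelinating Schwann cells it was lower in the 1NMPP1 library, at 17008 and 12839 CPM, beside the higher Atf3.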

How the data were processed

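Single-cell libraries were made with the 10x Genomics Chromium protocol, per the labels' protocols, and the authors' deposited tables hold raw UMI counts per gene and cell, which per the file headers came from Cell Ranger 7.2.0, on mm10 per the submitters' processing notes. Neither the labels nor the headers used here give the chemistry, the annotation release or the authors' cell filters. Barcodes with fewer than 200 genes or over 20% mitochondrial UMIs were removed, then doublets by the highest Scrublet scores at 0.8% per 1000 barcodes (scanpy 1.11.5). The libraries were clustered together (2000 variable genes, 30 components, Leiden resolution 1), and clusters that were mixed were split at 0.5. The 23 marker sets were set with the design, but the scoring and splitting rules were settled after the clusters were seen.

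Cells were thinned without replacement to 5000 or 50000 UMIs for neurons, 2000 for classes and 500 for shallow neurons. Levels are CPM of summed counts with exact Poisson intervals. Ratios are log2 of 1NMPP1 over vehicle with 0.5 UMI added and exact conditional intervals at 95%, and shares have exact Clopper-Pearson intervals; all cover counting error only. Genes with fewer than 20 UMIs over both libraries stayed out of medians and counts. A log2 ratio of 1 or more in size counted as past the fold. With 1 library per group no test was made. The other lists name up to 3 of their highest and 3 of their lowest genes. The ratio and interval steps were tested on simulated data. Alternatives covered filters, doublets, clustering, scaling, depth, sex calls and single clusters. The members and lists were chosen with earlier results of these data known. A targeted gene is not reported here, and 2 growth plate libraries of the same series were not used beyond a count of shared barcodes.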

Additional observations from a re-analysis of the deposited data

Results flagged for a closer look

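The count tables hold a tdTomato transgene that no comparison above uses, and the labels do not say what it marks. Sensory neurons held 647 tdTomato UMIs in 46 cells of the vehicle library and 1544 in 16 cells of the 1NMPP1 library, with at most 165 and 803 UMIs in 1 neuron. Satellite glia held 48 and 0 UMIs, and myelinating Schwann cells 13 and 10. Of neurons with at least 50000 UMIs, 8 and 5 had at least 10 tdTomato UMIs. Their median Gap43 was 1190 and 1370 CPM against 720 and 41.6 CPM in the other neurons, and their median Atf3 was 250 and 146 CPM against 197 and 137 CPM, with ranges that overlapped for both genes. Of the 6 neurons with at least 5 Gpr151 UMIs, 1 in the 1NMPP1 library held 21 tdTomato UMIs, and the 3 in the vehicle library held at most 1. The groups split by tdTomato were defined here, not by the study, and were not tested.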

How the results depend on the processing

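The number of members past a log2 ratio of 1 rests on few counts. The share of all genes past it was not computed for the alternatives counted below, so no background stands beside their counts. In neurons at 5000 UMIs it was 0, and became 1 with at least 500 genes, at 1000 UMIs, in a second thinning and without the largest neuron cluster, 2 with no thinning and 3 with no minimum of UMIs; the members' median was -0.92 in female-called cells, over 3 members. In satellite glia the count of 1 became 2 with no minimum and in male-called cells, and 0 with at least 100 UMIs, in female-called cells, and at 2000 UMIs with or without the limit to 0 neuron markers. The median there was 0.17 with no minimum, 0.095 in female-called cells, 0.24 at 2000 UMIs and 0.35 with that limit too. In myelinating Schwann cells the count of 1 became 2 with each cell weighted alike, 3 with no minimum, and 0 with at least 100 UMIs, in male-called cells, in female-called cells, at 2000 UMIs, with at most 1 neuron marker UMI, and at 2000 UMIs with none. Tubb6 turned to 1.00 (-1.66 to 2.86) in male-called myelinating Schwann cells, on 12 UMIs. The causes were not tested. Of single-gene values and the count of Gpr151-high neurons under all alternatives, 230 stayed within counting error or were unchanged, 47 moved and 1 turned. Only genes with a main log2 ratio of at least 1 in size could count as turned. Smaller ratios changed sign more often. In neurons Flrt3 kept its sign in 10 of 19 alternatives, Sox11 and Stmn4 in 12, and Atf3 and Gap43 in 16. Atf3 stayed above 0 in all 15 alternatives in satellite glia (0.10 to 0.92) and all 15 in myelinating Schwann cells (0.26 to 0.57). In satellite glia with at most 1 neuron marker UMI its 0.10 lay below the median of all measured genes, 0.13. The count of 6 neurons with at least 5 Gpr151 UMIs held in all 4 tried. The depth of 50000 UMIs, the limits on neuron markers, the 5-UMI minimum of Gpr151 and the runs without those neurons were chosen after seeing the data. A mitochondrial limit of 10% left no cells named non-myelinating Schwann, so no value was had there. Cells were clustered and named anew under that limit, and satellite glia then numbered 641 and 188 in place of 596 and 185. The line between these 2 names thus depends on the processing. No paired analysis was possible because there is 1 library per group. Sprr1a, Ecel1 and Gpr151 are limited by depth outside the deepest neurons.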

Other observations

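In neurons of the 1NMPP1 library at 50000 UMIs, 2 of 12 measured glial activation genes (14 in the list) were past a log2 ratio of 1, both lower, as were 3.97% of all measured genes: Fabp7, a lipid binding protein of satellite glia, was at 231 and 9 UMIs (-3.995, -5.22 to -3.12), and Sparc, a secreted matrix protein, at 126 and 18 UMIs (-2.16, -3.00 to -1.48). The satellite glia markers in neurons at 5000 UMIs averaged 2.65 UMIs per vehicle neuron and 1.02 per 1NMPP1 neuron, with medians of 1 in both and a highest of 43 and 16. Myelinating Schwann markers went the other way, at 2.92 and 4.49 UMIs per neuron. Fgf3, a fibroblast growth factor of the secreted list, was at 8 and 19 UMIs (1.81, 0.60 to 3.26), and Sdc1, a heparan sulfate proteoglycan, at 60 and 104 UMIs (1.40, 0.93 to 1.89).

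In satellite glia Lcn2, which codes for lipocalin 2, was higher in the 1NMPP1 library (77 and 89 UMIs, 2.20, 1.74 to 2.66), and Timp1, a metalloprotease inhibitor, was lower (474 and 51 UMIs, -1.22, -1.67 to -0.81). Arid5a, a DNA and RNA binding protein of the transcription factor list, was at 809 and 426 UMIs (1.06, 0.89 to 1.23), the only 1 of the 12 factors past a log2 ratio of 1 there. Of all measured genes in satellite glia, 7.59% were past it higher.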
